A study of Homo sapiens with 4 samples.

Results

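The 42 genes described here are the G1/S and DNA replication genes, a list of human genes whose RNA is made around the entry into S phase, and they were followed one by one and as a module. All 42 were found by their Ensembl identifier among the 32991 genes listed for every library. In the mean of the 4 libraries 37 of them reached 5 CPM and 5 did not (*CCNE2*, *EXO1*, *BLM*, *POLA1* and *E2F8*). UMIs are the counted transcript molecules, and CPM are the UMIs of a gene per 1000000 UMIs of the library.

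Droplet-based scRNA-seq was performed on A375, an established human melanoma line with the BRAF V600E mutation, in 4 conditions with 1 library each. S cells were untreated. RV cells had been made resistant to the BRAF inhibitor vemurafenib, RVC cells to vemurafenib together with the MEK1/2 inhibitor cobimetinib, and RVT cells to vemurafenib together with the MEK1/2 inhibitor trametinib. The drugs were given for 10 to 14 days at a fraction of their IC50 and taken away 24 h before capture, so that RV, RVC and RVT cells were measured without drug. With 1 library per condition no test between conditions is possible. All ranges are exact 95% intervals, which cover counting error only, and the spread between cultures is unknown.

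Each replication origin is first licensed in G1 by loading of the *MCM2* to *MCM7* helicase, with the help of *CDC6*, and is then fired in S phase when *CDC45* and the GINS complex join it. The fork is copied by primase, the polymerases alpha, delta and epsilon and their clamp *PCNA*, which RFC loads, while ribonucleotide reductase, *TYMS* and *TK1* supply the deoxynucleotides and *NASP*, *CHAF1B* and *SLBP* serve the supply of histones. Most of these genes are known targets of the E2F factors, which are held back by the retinoblastoma protein until cyclin D kinases, downstream of BRAF, MEK and ERK signalling, release them.

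The promoters of 34 of the 42 genes were read from the RefSeq table of GRCh38.p14, as 250 bases before and 50 bases after the annotated start. The other 8 (*MCM4*, *MCM5*, *WDR76*, *CCNE2*, *POLD3*, *ATAD2*, *DSCC1* and *E2F8*) had no entry. A core E2F motif, searched on both strands with overlapping matches counted (spelled TTCCCGC, or else TTCGCGC, or else TTGCCGC, or else TTGGCGC), was present in 26 of the 34 promoters (76.5%), against 13.1% of all 27305 promoters of the table and 21.9% of those of the 7064 genes that reached 5 CPM here. The letters CCAAT, bound by NF-Y and on occasion overlapping an E2F match, were found in 24 (70.6%, against 35.7% and 37.3%), and the cell cycle homology element TTTGAA of late cell cycle genes in 1 (2.94%, against 15.4% of all promoters and 9.53% of those of the genes past 5 CPM). *FEN1*, *RRM2*, *NASP*, *GMNN*, *SLBP*, *CDC45*, *TIPIN* and *TK1* held none of the 4 E2F spellings in this window. A match is a run of letters and no measurement of binding.

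Shown are 2 pairs of promoters whose genes went different ways. *MCM3* and *MCM7*, subunits of the same helicase, stood well above and below the mean of the genes in RVT over S on the uncentred scale, and *CLSPN* and *CENPU* are the highest and the lowest of the genes in RVC over S. Capitals mark the E2F matches, read 5′ to 3′ on the strand of the gene.
*MCM3* (chr6:52284693-52284992, minus strand): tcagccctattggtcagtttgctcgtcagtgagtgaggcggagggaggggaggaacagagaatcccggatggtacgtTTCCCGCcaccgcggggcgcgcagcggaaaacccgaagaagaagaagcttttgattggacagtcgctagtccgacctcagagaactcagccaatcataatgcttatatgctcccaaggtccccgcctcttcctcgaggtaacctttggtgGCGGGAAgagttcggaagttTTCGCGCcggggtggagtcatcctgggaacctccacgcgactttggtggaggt
*MCM7* (chr7:100101348-100101647, minus strand): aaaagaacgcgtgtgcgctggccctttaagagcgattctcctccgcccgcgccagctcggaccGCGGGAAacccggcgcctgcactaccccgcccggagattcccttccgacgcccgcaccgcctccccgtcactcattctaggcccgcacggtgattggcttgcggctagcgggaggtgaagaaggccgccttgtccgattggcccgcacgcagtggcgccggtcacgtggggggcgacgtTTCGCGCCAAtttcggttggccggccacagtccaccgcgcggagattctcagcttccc
*CLSPN* (chr1:35769929-35770228, minus strand): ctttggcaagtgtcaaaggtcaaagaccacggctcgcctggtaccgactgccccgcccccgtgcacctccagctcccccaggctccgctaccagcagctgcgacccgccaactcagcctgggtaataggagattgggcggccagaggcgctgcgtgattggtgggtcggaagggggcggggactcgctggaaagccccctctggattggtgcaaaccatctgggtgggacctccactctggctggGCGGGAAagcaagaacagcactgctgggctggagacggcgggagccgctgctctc
*CENPU* (chr4:184734047-184734346, minus strand): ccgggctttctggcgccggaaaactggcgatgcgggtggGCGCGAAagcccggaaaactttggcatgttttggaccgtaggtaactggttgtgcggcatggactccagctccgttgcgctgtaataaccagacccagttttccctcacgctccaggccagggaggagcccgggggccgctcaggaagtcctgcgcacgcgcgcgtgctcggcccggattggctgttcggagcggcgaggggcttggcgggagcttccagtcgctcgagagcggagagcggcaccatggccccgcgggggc
Both MCM promoters held 3 matches, and both *CLSPN* and *CENPU* held 1. In *MCM3* the match nearest to the start began 3 bases before it, and in *MCM7* a pair of matches began 8 and 5 bases before it and overlapped. The match of *CLSPN* began 5 bases before the start and that of *CENPU* 211 bases before it. The pairs were chosen for their different values, so nothing is read from their equal numbers of matches.

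The filtered libraries held 6334 S, 4177 RV, 7620 RVC and 8443 RVT cells with a median of 8804, 11553, 3954.5 and 2867 UMIs per cell. For S and RV 703 genes are listed that are not listed for RVC and RVT, and 547 the other way. In RVC over S and RVT over S the drug and the annotation thus cannot be told apart. With 1 library per condition the drug and the library cannot be told apart in any comparison. Between libraries 38 to 149 cell barcodes were shared. Over 8839 genes with at least 5 CPM the median log2 ratio was 0.02 in RV over S, 0.21 in RVC over S, 0.33 in RVT over S and 0.22 in RVT over RVC. In RVC and RVT over S genes rich in G and C over the last 500 transcript bases had lower ratios (Spearman -0.34 and -0.40 across genes, -0.16 in RVT over RVC, 0.00 in RV over S), while the replication genes had a median GC content of 36.0% against 41.0% of all genes. Ratios centred within bins of GC content are therefore given where they change a statement. Of the melanocyte markers *SOX10* had 86.7, 40.2, 0 and 19.4 CPM in S, RV, RVC and RVT, MITF had 9.73, 20.2, 7.94 and 40.9, *TYR* was at 0 in all 4 libraries, and the summed level of all 8 was 195, 81.9, 8.43 and 61.5 CPM. The 5 fibroblast markers summed to 2.57, 2.24, 167 and 42.8 CPM, with *COL3A1* at 0, 0, 122 and 7.28, and the part of these differences in the results was not tested. All 4 cultures are labelled A375. Whether RVC and RVT are cells of the same line as S was not tested, so their ratios over S compare the libraries labelled so. Summed leukocyte, endothelial and epithelial markers stayed at or below 11.5 CPM, with *PTPRC* at 0 in every library.

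As a module the 42 genes were slightly more abundant in RV than in S and much less abundant in RVT, while their level in RVC lay above that of S by an amount that depended on the scaling. They summed to 933 CPM (926 to 941) in S against 1187 (1178 to 1196) for RV, 1229 (1217 to 1241) for RVC and 407 (399 to 415) for RVT. RVT was thus the only low library, 2.29-fold below S and 3.02-fold below RVC in the summed level. In bulk sums fewer cells with these RNAs and less RNA per cell cannot be told apart. The mean log2 ratio of the 37 genes past 5 CPM was 0.35 in RV over S, 0.37 in RVC over S, -1.32 in RVT over S and -1.69 in RVT over RVC. Relative to the median of all genes it stood at 0.34, 0.16, -1.65 and -1.90. The mean of RVC over S was 0.15 with TMM scaling and 0.05 with GC centring, under which that of RV over S was 0.34. The first 3 of these comparisons share the S library.

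The genes moved less uniformly in RVC and RVT than in RV. The SD of the log2 ratios across the 37 genes was 0.21 in RV over S, 0.93 in RVC over S, 1.34 in RVT over S and 0.98 in RVT over RVC, against 0.48, 1.56, 1.67 and 1.22 across all genes. RV was thus shifted almost as 1 block and RVC and RVT were not, but in every comparison the replication genes spread less than all genes did, so the wider spread of RVC and RVT is not particular to them.

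**Figure D1:**
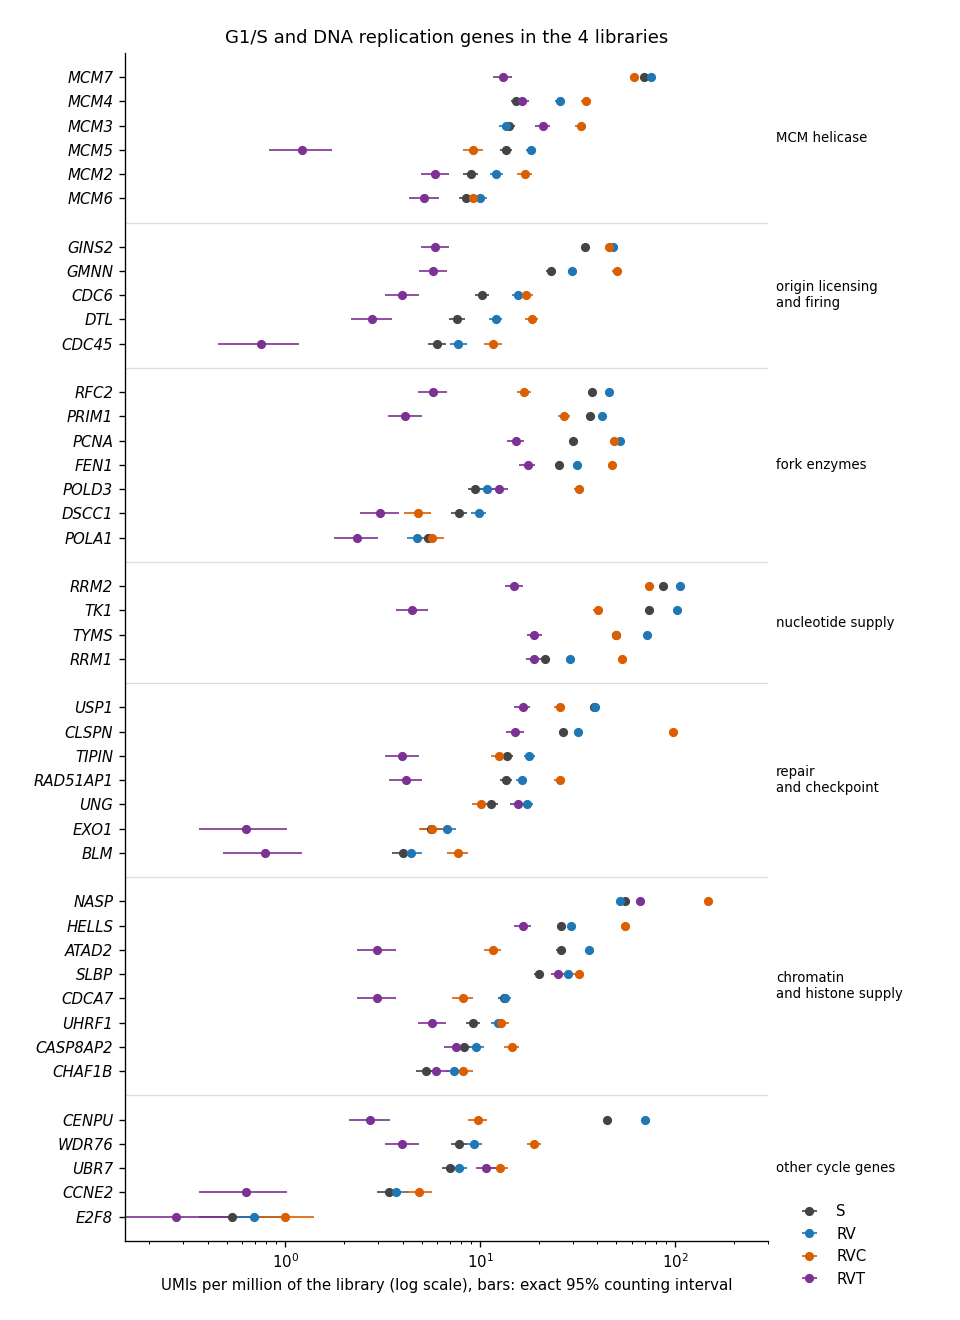
Level of each of the 42 genes in S, RV, RVC and RVT as CPM on a log axis, grouped by role, with exact 95% counting intervals as bars. The RVT points lie left of the others for most genes (*CDC45* at 0.748, *EXO1* and *CCNE2* at 0.630), whereas those of *MCM3*, *MCM4*, *NASP*, *SLBP*, *CHAF1B*, *POLD3*, *UNG* and *UBR7* lie within the range of the other libraries.

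In RV over S, 35 of the 37 genes were higher and 2 lower, and 0 passed 2-fold in either direction (2.23% of all genes were more than 2-fold higher and 1.73% more than 2-fold lower), nor did any with GC centring (2.19% and 1.80% of all genes). *PCNA*, the sliding clamp of the polymerases, had 29.8 CPM in S and 52.2 in RV (1.75-fold), *MCM4* 15.3 and 25.6 (1.67-fold), and *DTL*, the adaptor that marks *CDT1* for degradation at *PCNA*, 7.64 and 12.0 (1.57-fold). These 3 were the highest relative to the mean of the module. At the other end stood the histone chaperone *NASP* with 55.1 CPM in S and 52.3 in RV, *MCM3* with 14.1 and 13.5, and *CDCA7*, a partner of the remodeller *HELLS*, with 13.2 and 13.4. The intervals of the log2 ratio held 0 for *MCM3* (-0.21 to 0.08) and *CDCA7* (-0.13 to 0.17). None of the 37 genes departed from the module mean by more than 2-fold, as 5.08% of all genes did.

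The genes with the most UMIs in S all followed this small shift except *NASP*. *RRM2*, a subunit of ribonucleotide reductase, had 86.3 CPM in S and 106 in RV, *TK1*, the salvage kinase of thymidine, 73.7 and 102, *MCM7* 68.9 and 75.6, and *TYMS*, which makes thymidylate, 49.7 and 71.8. Each of these levels was thus between 1.10-fold and 1.44-fold higher in RV, and the intervals of their log2 ratios lay above 0.

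In RVC over S the 37 genes went both ways, with a smaller spread than all genes (SD of 0.93 against 1.56). Of the 37 genes 23 were higher and 14 lower, where the median log2 ratio of all genes was 0.21. By more than 2-fold 10 were higher (22.9% of all genes) and 3 lower (22.1% of all genes). The share more than 2-fold higher was thus near that of all genes, and the share more than 2-fold lower was smaller. The median log2 ratio was 0.68 and the mean 0.37. Of the 37 genes 9 departed from the mean by more than 2-fold, 3 above and 6 below it, against 41.9% of all genes.

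*CLSPN*, the adaptor of the replication checkpoint kinase CHK1, was highest, with 26.6, 31.9, 97.2 and 15.1 CPM in S, RV, RVC and RVT. Its log2 ratio in RVC over S was 1.87 (1.78 to 1.96), a 3.65-fold difference. *POLD3*, a small subunit of polymerase delta, had 9.46, 10.9, 32.1 and 12.5 CPM (1.76 in RVC over S, 1.61 to 1.92), and *NASP* 55.1, 52.3, 148 and 65.9 CPM (1.42, 1.36 to 1.49). For all 3 genes RVC was the highest of the 4 libraries. *POLD3* is overlapped on its strand by *AP001372.2*, a gene listed for S and RV (1.90 and 2.10 CPM) and not for RVC and RVT, and the part of this in its ratio was not tested.

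*CENPU*, a component of the inner kinetochore, moved against the mean of the module in RVC over S, though not in RV or RVT over S. It had 44.7 CPM (43.0 to 46.4) in S, and 70.0, 9.70 and 2.72 CPM in RV, RVC and RVT (2.11 to 3.44 in RVT). *CENPU* was thus 4.60-fold lower in RVC than in S and 16.4-fold lower in RVT, although RV was higher than S. *RFC2*, a subunit of the clamp loader, had 37.5, 45.9, 16.7 and 5.71 CPM, and *ATAD2*, an E2F-induced bromodomain ATPase, 25.9, 36.3, 11.6 and 2.95 CPM. Both were 2.24-fold lower in RVC than in S and followed the same order of libraries, RV above S above RVC above RVT. *TK1*, *DSCC1* and *CDCA7* also stood more than 2-fold below the mean, with log2 ratios of -0.88, -0.70 and -0.70.

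The GC trend bears on part of these values. After centring on GC content 2 genes in place of 10 were more than 2-fold higher in RVC than in S (16.5% of all genes on this scale) and 5 in place of 3 more than 2-fold lower (22.4%). *CENPU* (-2.77), *ATAD2* (-1.75), *CLSPN* (1.61) and *POLD3* (1.29) kept their side of 2-fold under this centring, *RFC2* (-0.72) and *NASP* (0.93) did not, and *TK1*, which at 60.2% had the highest GC content of the 37 genes, changed its sign from -0.88 to 0.89. The lower level of *TK1* in RVC than in S therefore rests on the uncentred scale.

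**Figure D2:**
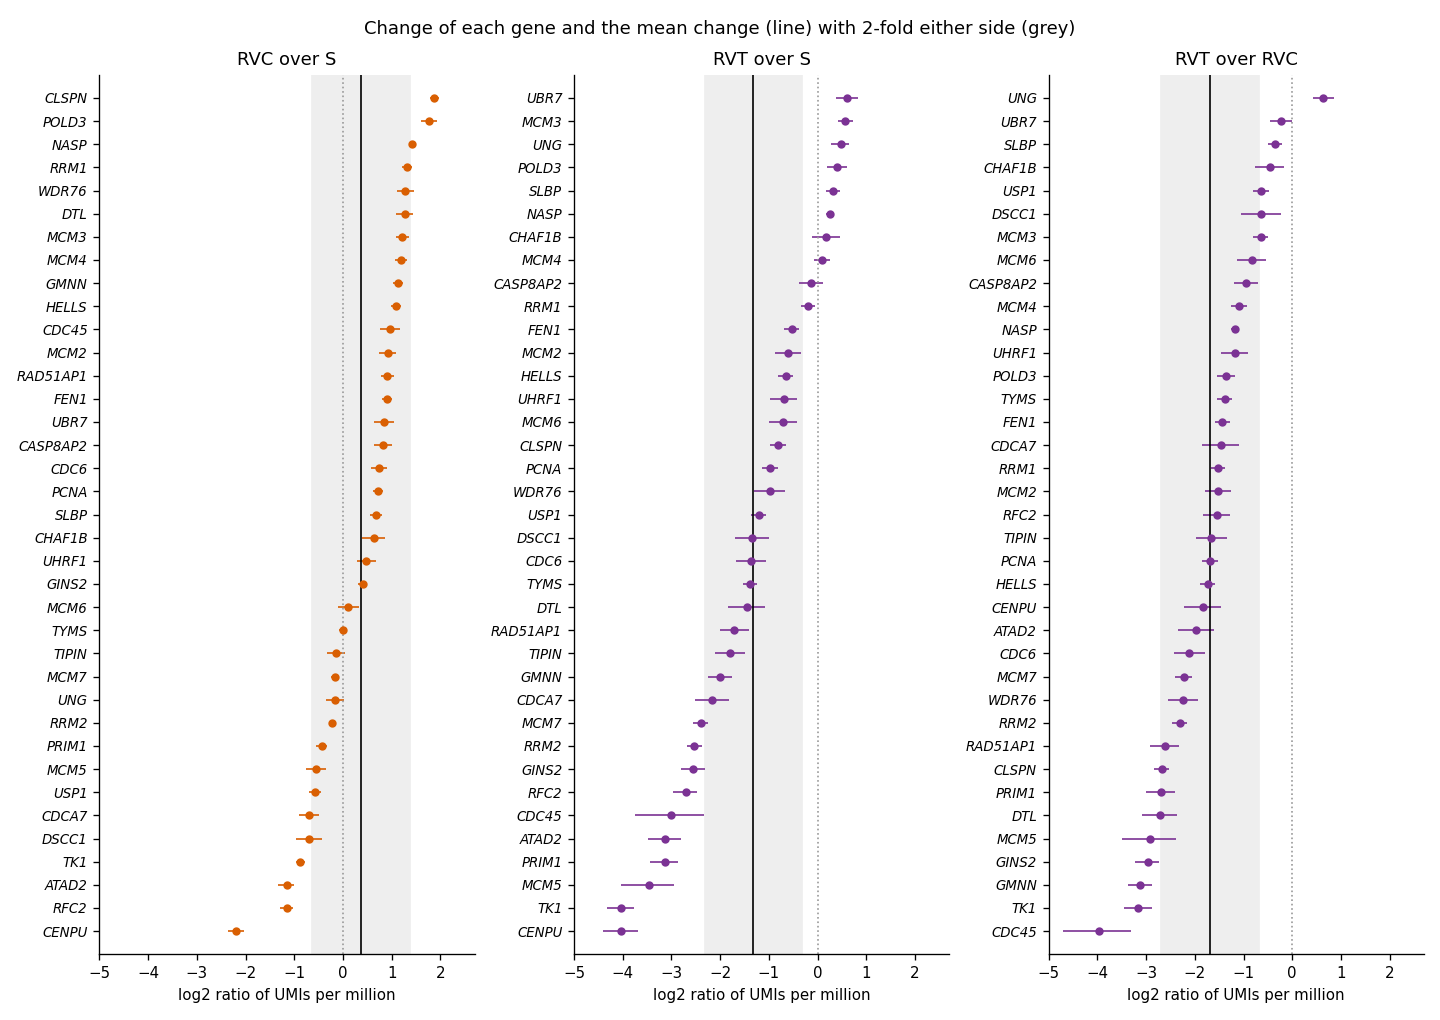
Log2 ratio of the CPM of the 37 genes past 5 CPM in RVC over S, RVT over S and RVT over RVC, each panel sorted by value, with exact 95% counting intervals, the mean of the genes as a line and 2-fold either side of it in grey. *CENPU* lies lowest in RVC over S (-2.20) and together with *TK1* in RVT over S (-4.04, which GC centring moved to -4.92 for *CENPU* and -2.13 for *TK1*), and *CDC45* lies lowest in RVT over RVC (-3.96), where *UNG* is the only gene above 0 (0.64).

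In RVT most of the module was lower than in S, by very unequal amounts. Of the 37 genes 29 were lower, 19 of them by more than 2-fold (22.2% of all genes), and 8 were higher, 0 of them by more than 2-fold (31.3% of all genes). Of the 37 genes 20 departed from the mean by more than 2-fold, 10 above and 10 below it, against 73.6% of all genes measured from the same mean. That share is high by construction, since the median of all genes (0.33) lies far from this mean (-1.32). The SD was 1.34 across the 37 genes and 1.67 across all genes. With GC centring the mean log2 ratio was -1.82 and 26 genes were more than 2-fold lower and 0 higher (23.7% and 21.0% of all genes on this scale).

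*TK1* had 4.49 CPM in RVT (3.70 to 5.39) against 73.7 in S, 102 in RV and 40.1 in RVC, and was 16.4-fold lower than in S. With GC centring its log2 ratio in RVT over S was -2.13 in place of -4.04, still more than 2-fold lower but no longer among the lowest. *RRM2* had 14.9 CPM against 86.3, 106 and 73.9, and *PRIM1*, the catalytic primase subunit, 4.13 CPM against 36.5, 42 and 26.9. In these 3 genes RVT lay below every other library with no overlap of the intervals. The same held for most of the 37 genes, such as *FEN1* (15.9 to 19.2 CPM in RVT, 24.1 to 26.7 in S), so it does not single out these 3. The share of all genes for which it holds was not computed. *RRM1*, which with *RRM2* makes up the reductase, had 18.8 CPM in RVT against 21.6 in S, 29 in RV and 53.7 in RVC. The log2 ratios of the reductase subunits in RVT over S were thus -2.54 (-2.69 to -2.38) for *RRM2* and -0.20 (-0.35 to -0.05) for *RRM1*, or -3.42 and -0.81 with GC centring, which lowered most of the 37 values of this comparison and raised those of *TK1*, *RFC2* (-2.22) and *MCM7* (-1.90). The subunits also differed in RVC over S, with -0.22 for *RRM2* and 1.32 for *RRM1* (-0.79 and 0.85 with GC centring). In RVT over RVC, which shared the annotation, they lay closer, at -2.31 and -1.52. Their difference is thus not particular to RVT. *RRM2* is overlapped on its strand by *AC007240.1*, a gene listed for RVC and RVT only (2.25 and 0.512 CPM). *TYMS* had 18.9 CPM in RVT against 49.6 in RVC and 49.7 in S.

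The 6 MCM subunits, which act as 1 ring, diverged in RVT and, by less, in RVC. *MCM5* had 13.5, 18.2, 9.22 and 1.22 CPM in S, RV, RVC and RVT (0.829 to 1.73 in RVT, from 31 UMIs), 11.1-fold lower in RVT than in S. *MCM7* had 68.9, 75.6, 61.4 and 13.1 CPM, 5.27-fold lower in RVT than in S. *MCM3*, in contrast, had 14.1, 13.5, 32.8 and 20.9 CPM (19.2 to 22.8 in RVT), 1.49-fold higher in RVT than in S. *MCM4* had 15.3, 25.6, 34.8 and 16.3 CPM, *MCM2* 8.94, 12.1, 16.9 and 5.87, and *MCM6* 8.47, 9.98, 9.16 and 5.16. The log2 ratios in RVT over S thus ran from -3.47 (-4.03 to -2.95) for *MCM5* to 0.57 (0.41 to 0.73) for *MCM3*. With GC centring *MCM5* stood at -3.98, *MCM7* at -1.90 and *MCM3* at 0.04, so that the order of *MCM5* below *MCM7* below *MCM3* was kept and the higher level of *MCM3* was not. In RVC over S the ratios already ran from -0.55 for *MCM5* to 1.22 for *MCM3* (-0.92 and 0.72 with GC centring). In RVT over RVC, counted with the same annotation, all 6 were lower, from -2.92 for *MCM5* to -0.65 for *MCM3*. The SD across the 6 genes was 0.28 in RV over S, 0.75 in RVC over S, 1.54 in RVT over S and 0.88 in RVT over RVC. Across all genes it was larger in each comparison (0.48, 1.56, 1.67 and 1.22).

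**Figure D3:**
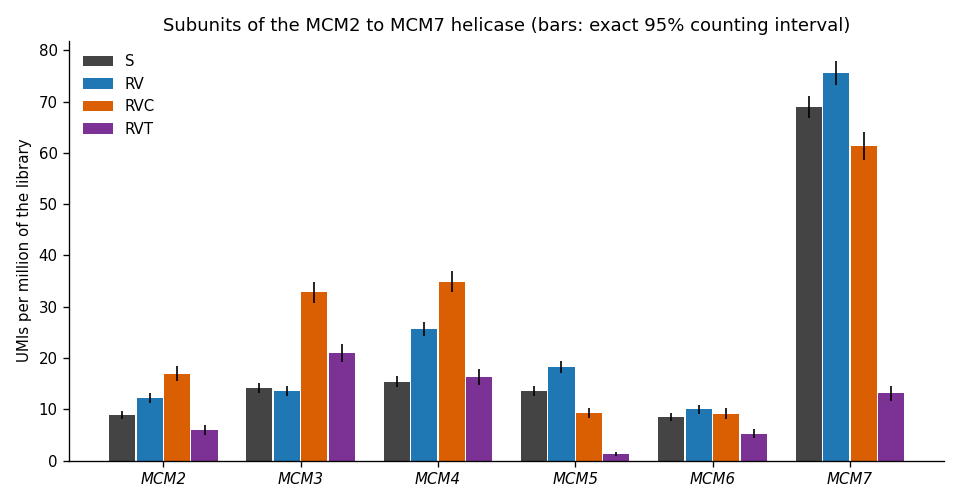
CPM of *MCM2* to *MCM7* in S, RV, RVC and RVT, with exact 95% counting intervals. In RVT the bars of *MCM5* (1.22) and *MCM7* (13.1) are far below those of S (13.5 and 68.9), while those of *MCM3* (20.9 against 14.1) and *MCM4* (16.3 against 15.3) are not. The heights of different genes are not compared, since capture differs between transcripts.

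The 5 origin genes were all lower in RVT. They summed to 81.6, 113, 143 and 19.1 CPM in S, RV, RVC and RVT. *CDC45*, which activates the loaded helicase, had 5.99, 7.72, 11.7 and 0.748 CPM in S, RV, RVC and RVT (0.450 to 1.17 in RVT, from 19 UMIs). *GINS2*, a subunit of the GINS complex, had 34.7, 48.3, 46.0 and 5.87 CPM, and *GMNN*, the inhibitor of *CDT1*, 23.0, 29.6, 50.1 and 5.75 CPM. *CDC6* had 10.2, 15.6, 17.1 and 3.98 CPM and *DTL* 7.64, 12.0, 18.4 and 2.80. All 5 were thus higher in RV and RVC than in S and more than 2-fold lower in RVT than in S, with log2 ratios from -3.00 for *CDC45* to -1.37 for *CDC6*.

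The 8 genes of chromatin and histone supply had the smallest change in their summed level of all 7 roles in RVT over S on the uncentred scale. The roles were not ranked with GC centring. Their sum was 163, 189, 290.1 and 132 CPM in S, RV, RVC and RVT, a log2 ratio of -0.30 (-0.36 to -0.24) in RVT over S. *NASP* alone had 65.9 of the 132 CPM in RVT, and the mean log2 ratio of the 8 genes in RVT over S was -0.75. *SLBP*, which binds the stem-loop of histone messengers, had 20, 28.3, 32.0 and 25.0 CPM, and *CHAF1B*, a subunit of the CAF-1 chaperone, 5.25, 7.36, 8.12 and 5.91. *ATAD2* and *CDCA7* were the exceptions, with log2 ratios of -3.13 and -2.16 in RVT over S, and *HELLS* (-0.65), *UHRF1* (-0.70) and *CASP8AP2* (-0.13) lay between. With GC centring these 5 values were lower, at -4.01, -3.04, -1.53, -1.58 and -0.74.

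*UNG*, the uracil DNA glycosylase, had 11.4, 17.4, 10.1 and 15.7 CPM in S, RV, RVC and RVT, and *UBR7*, a ubiquitin ligase, 7.03, 7.76, 12.6 and 10.7. Together with *MCM3* they stood highest in RVT over S (log2 ratios of 0.61 for *UBR7*, 0.57 for *MCM3* and 0.47 for *UNG*). Relative to the median of all genes in this comparison, 0.33, these values were small. With GC centring the values were -0.18, 0.04 and -0.05. *UBR7* and *UNG* thus changed sign and *MCM3* moved to near 0. *NASP*, *SLBP*, *POLD3* and *MCM4* also changed sign, from 0.26, 0.32, 0.40 and 0.09 to -0.28, -0.56, -0.21 and -0.70, so a clearly higher level in RVT than in S was shown for none of these 7 genes on both scales. On both scales each of these 7 genes stood more than 2-fold above the mean of the module.

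RVT over RVC compared the cultures of both MEK inhibitor combinations, which shared the annotation. Of the 37 genes 36 were lower in RVT, 28 of them by more than 2-fold (11.3% of all genes), and 0 were more than 2-fold higher (17.1% of all genes). In this comparison 14 genes departed from the mean by more than 2-fold, 7 above and 7 below it, against 84.3% of all genes measured from the same mean. This share too is high by construction, since the median of all genes (0.22) lies far from the mean of -1.69. The SD was 0.98 across the 37 genes and 1.22 across all genes. *CDC45* was 15.6-fold lower, *TK1* 8.93-fold and *GMNN* 8.72-fold, with log2 ratios of -3.96 (-4.71 to -3.30), -3.16 and -3.12. *GINS2* (-2.97), *MCM5* (-2.92), *DTL* (-2.72) and *PRIM1* (-2.70) were the other 4 below the mean by more than 2-fold, and *CLSPN* (-2.68) lay at the border. At the upper end *UNG* was 1.55-fold higher in RVT (0.64, 0.42 to 0.85), *UBR7* stood at -0.24 (-0.46 to -0.01) and *SLBP* at -0.36 (-0.50 to -0.21). *CHAF1B*, *USP1*, *DSCC1* and *MCM3* also lay more than 2-fold above the mean. Under GC centring the mean was -1.97 and 31 genes were more than 2-fold lower and 0 higher (14.9% and 10.7% of all genes on this scale), and *UNG* stayed above 0 (0.38).

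Of the 7 roles the repair and checkpoint genes had the widest range in this comparison, from *UNG* at 0.64 to *CLSPN* at -2.68. *USP1*, a deubiquitinase of *PCNA*, had 38.2, 38.8, 25.6 and 16.5 CPM in S, RV, RVC and RVT, and *TIPIN*, of the fork protection complex, 13.8, 17.9, 12.5 and 3.98. *RAD51AP1*, a partner of the strand exchange recombinase, had 13.6, 16.3, 25.6 and 4.17 CPM. *USP1* was thus lower in RVC than in S and *TIPIN* did not differ beyond counting error, whereas *CLSPN* and *RAD51AP1* were higher, and all 4 were lowest in RVT. With GC centring the log2 ratio of *TIPIN* in RVC over S was -0.40 in place of -0.14, and that of *RAD51AP1* 0.33 in place of 0.91. That *TIPIN* did not differ thus rests on the uncentred scale. Of the fork enzymes not yet given, *FEN1*, the flap nuclease of Okazaki fragments, had 25.4, 31.3, 47.4 and 17.5 CPM, and *DSCC1*, of an alternative clamp loader, 7.76, 9.82, 4.78 and 3.07. *WDR76*, of the other cycle genes, had 7.80, 9.31, 18.9 and 3.98 CPM.

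The 5 genes under 5 CPM were read with their UMIs. *EXO1* had 326, 353, 186 and 16 UMIs in S, RV, RVC and RVT, *CCNE2*, a cyclin that activates CDK2, 200, 193, 159 and 16, and *BLM*, a RecQ helicase, 234, 230, 252 and 20. *POLA1* had 314, 249, 186 and 59 UMIs and *E2F8*, a repressive E2F factor, 31, 36, 33 and 7. All 5 were lowest in RVT in CPM as well (0.630, 0.630, 0.787, 2.32 and 0.276 CPM), and for *E2F8* the interval of the log2 ratio in RVT over S (-2.37 to 0.27) held 0.

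A further list of 50 replication genes outside the module, of which 39 reached 5 CPM, was set beside it. In RV over S 0 of the 39 passed 2-fold. In RVC over S 13 were more than 2-fold higher and 5 lower (22.9% and 22.1% of all genes), in RVT over S 1 higher and 19 lower (31.3% and 22.2% of all genes), and in RVT over RVC 0 higher and 24 lower (17.1% and 11.3% of all genes). These counts are on the uncentred scale. With GC centring some genes came within 2-fold in RVC over S, such as *DTYMK* (-0.82 in place of -1.26), *CHTF18* (0.24 in place of -1.53), *MCMBP* (0.66 in place of 1.16) and *CHEK1* (0.58 in place of 1.08). The mean log2 ratios were 0.27, 0.45, -1.04 and -1.49. The list thus moved in the directions of the module in all 4 comparisons, with an SD of 1.30 in RVC over S and 1.5 in RVT over S.

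The extremes of this list were large. *RNASEH2A*, the catalytic subunit of ribonuclease H2, had 54.2, 79.2, 4.87 and 1.97 CPM in S, RV, RVC and RVT, and *POLD2*, another subunit of polymerase delta, 137, 174, 20.7 and 8.62. Both followed the order of *CENPU*, *RFC2* and *ATAD2*. *POLD2* and *POLD3* belong to the same polymerase, and their log2 ratios in RVC over S were -2.73 and 1.76, or -2.29 and 1.29 with GC centring. *DUT*, which hydrolyses dUTP, had 173, 211, 35.4 and 58.7 CPM and was among the 3 of the 39 genes higher in RVT than in RVC (0.73, 0.62 to 0.84). *RPA1*, the large subunit of the single-strand binding protein, had 16.9, 20.9, 65.3 and 63.0 CPM and was the gene of the list more than 2-fold higher in RVT than in S (log2 ratio of 1.90, or 1.52 with GC centring). *POLA2*, the accessory subunit of polymerase alpha and rich in G and C, had 5.81, 8.56, 16.3 and 4.13 CPM, and its log2 ratio of -0.49 in RVT over S became 1.42 with GC centring, so that on this scale it passed 2-fold too. *GINS4* and *CDC25A* were highest in RVC over S (2.41 and 2.01, or 1.94 and 1.75 with GC centring, where *POLA2* was higher, at 3.26 in place of 1.49), *GINS1* had a log2 ratio of 0.87 in RVT over S (0.08 with GC centring, so that its higher level rests on the uncentred scale), *MCM10*, which helps to activate the helicase, was 19.7 CPM in RVC and 1.26 in RVT, and *ASF1B*, a histone chaperone, 31.5 and 3.43. *ORC2* and *CDT1* were lowest in RV over S (-0.35 and -0.29) and *RFC4* and *ASF1B* highest (0.63 and 0.61), and *ORC2* had 13.6 CPM in RVC and 21.1 in RVT (0.64, or 0.20 with GC centring).

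To compare cells at 1 depth, each cell was thinned to 1500 UMIs, which left out 403 shallower RVC cells and 848 RVT cells and none of S or RV. The mean number of UMIs of the 42 genes in a cell was then 1.34, 1.79, 1.87 and 0.571 in S, RV, RVC and RVT. The share of cells with at least 3 such UMIs was 18.5% (17.6% to 19.5%) for S, 28.4% (27.0% to 29.8%) for RV, 29% (28.0% to 30.1%) for RVC and 3.90% (3.47% to 4.36%) for RVT. Without thinning it was 70.3%, 84.6%, 69.8% and 11.2%. The culture holds no cell type known to lack these RNAs, so the level that free RNA gives was not measured, and no cell was called cycling from such a share.

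At this depth RV and RVC had nearly the same mean and overlapping intervals for the share of rich cells, but they spread the UMIs differently. Thinned to 2500 UMIs, which left out 1755 RVC and 3232 RVT cells, the share with at least 3 was 46.2% (44.7% to 47.7%) for RV and 53.0% (51.7% to 54.3%) for RVC, with means of 2.97 and 3.06. At 1500 UMIs cells with 0 UMIs of the 42 genes made up 30.8% of RV (29.4% to 32.2%) and 21.9% of RVC (20.9% to 22.8%), and cells with at least 8 made up 1.20% and 0.485%. The variance divided by the mean was 2.14, 2.05, 1.43 and 1.78 in S, RV, RVC and RVT. In RVC the RNAs were thus spread more evenly over the cells than in S and RV.

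**Figure D4:**
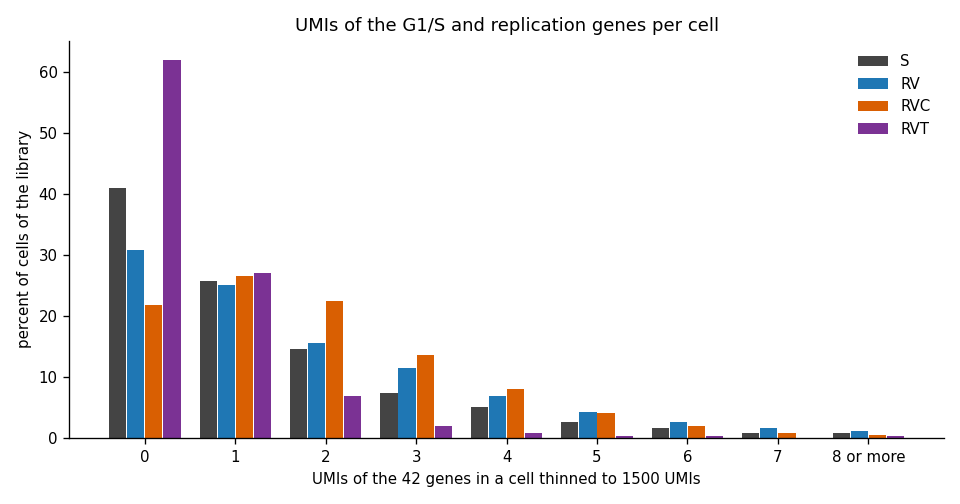
Share of the cells of each library by the number of UMIs of the 42 genes, after thinning each cell to 1500 UMIs. RVT has its largest share at 0 (62.1% of cells), RVC has fewer cells at 0 (21.9%) than S (41.1%) and RV (30.8%), and cells with 8 or more are rare in all 4 (0.303% to 1.20%).

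The replication genes were also set against the 52 G2/M genes, which summed to 1687, 2149.7, 4544 and 1420.3 CPM in S, RV, RVC and RVT. Cells with at least 3 UMIs of the G2/M genes made up 29.9% of thinned S cells, 39.3% of RV, 80.8% of RVC and 14.4% of RVT. In S such cells had a mean of 2.38 UMIs of the replication genes and cells with 0 UMIs of the G2/M genes 0.604, and in RVC 2.02 and 0.835. In RVT they had 1.40 and 0.400. Of the cells rich in replication genes, 62.9, 63.8, 89.1 and 70.3% in S, RV, RVC and RVT were also rich in G2/M genes, above the shares of all cells just given in every library. Since most RVC cells were rich in G2/M genes, this share had little room to rise in RVC. Read the other way, the share of cells with at least 3 UMIs of the replication genes was 39.0%, 46.1%, 32.0% and 19% of the cells rich in G2/M genes (S, RV, RVC, RVT), against 3.88%, 8.87%, 8.27% and 0.691% of the cells with 0 UMIs of the G2/M genes.

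Whether the genes belong together from cell to cell was examined within each library. Each gene was compared between thinned cells with at least 3 UMIs and cells with 0 UMIs of the other 41 genes, so that the gene itself did not choose the cells. The interval of the log2 ratio lay above 0 for 41, 40, 36 and 32 of the 42 genes in S, RV, RVC and RVT, and below 0 for none. Of the 37 past 5 CPM it lay above 0 for 36, 37, 34 and 30, against 17.1%, 20.3%, 11.7% and 12.2% of all genes past 5 CPM, while it lay below 0 for 6.83%, 6.88%, 3.86% and 3.34% of them. The median log2 ratio was 2.25, 1.81, 0.98 and 2.55 in S, RV, RVC and RVT, over the 40 to 42 genes with UMIs on both sides, and 0.12, 0.18, 0.09 and 0.13 over all genes. The replication genes thus went together from cell to cell in a larger share than genes at large, with the smallest median in RVC.

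In S the genes followed the others to different degrees. *CDC6* had 35.1 CPM in rich cells and 2.04 in cells without the others, *CLSPN* 78.8 and 6.60, and *ATAD2* 68.5 and 5.84. Of the genes with UMIs in both kinds of S cells, *CHAF1B* had the widest contrast, with 15.6 and 0.768 CPM (27 and 3 UMIs). *EXO1*, *CDC45* and *WDR76* also had wider contrasts than *CLSPN* and *ATAD2*, from 3 or 5 UMIs in cells without the others. *TIPIN* (16.8 and 11.8), *NASP* (91.5 and 43.7) and *SLBP* (31.8 and 14.3) followed least. Among genes with UMIs in both kinds of RVT cells the contrast was widest for *TK1*, with 36.7 CPM in rich cells and 0.565 in cells without the others (16 and 4 UMIs), *CENPU*, with 36.2 and 0.565 (16 and 4 UMIs), and *RRM2*, with 159 and 3.38 (65 and 24 UMIs). Of the UMIs of these 3 genes in both kinds of RVT cells, most thus lay in the rich cells, although these were far fewer. *SLBP* (27.1 and 24.3 CPM in RVT, from 11 and 178 UMIs) and *UNG* (24.3 and 17.9, from 10 and 130 UMIs), in contrast, had similar levels in both kinds of RVT cells. The intervals of their log2 ratios held 0. So did those of *MCM5*, *MCM6*, *TIPIN*, *CASP8AP2* and *CHAF1B* in RVT, so this is not particular to *SLBP* and *UNG*. *UNG* had followed the others in S (32.6 and 4.08 CPM).

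Library sums were then set beside the values in rich cells alone, that is, thinned cells with at least 3 UMIs of the other genes. This choice of cells itself fixes much of the level of all genes, so the values are read as departures from the mean of the 37 genes within the same kind of cells. The rich cells are part of the cells in the sums, so some agreement between both is built in. How often genes at large keep a departure in rich cells was not computed, so the counts below describe the 37 genes only.

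In RVC over S the mean log2 ratio of the 37 genes was -0.27 in rich cells and 0.37 in all cells, and the SD 1.01 and 0.93. All 3 genes more than 2-fold above the mean in the sums and all 6 below it were also more than 2-fold from the mean, on the same side, in rich cells. *CENPU* departed by -2.33 in rich cells and -2.57 in all, *ATAD2* by -1.76 and -1.53, *TK1* by -1.74 and -1.25, and *RFC2* by -1.43 in rich cells against -1.53. On the upper side stood *NASP* (1.38 against 1.06), *POLD3* (1.35 against 1.40) and *CLSPN* (1.10 against 1.5). None of these values is centred on GC content. In the sums, centring turned *TK1* (0.89) and left *RFC2* (-0.72) and *NASP* (0.93) within 2-fold of the mean of 0.05, so that their departures in rich cells rest on the uncentred scale, while those of *CENPU*, *ATAD2*, *POLD3* and *CLSPN* in the sums stayed past 2-fold. The annotation also separates RVC from S in these values.

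In RVT over S the mean was -0.36 in rich cells and -1.32 in all cells. Of the 10 genes more than 2-fold above the mean in the sums 8 were above it in rich cells, 6 of them by more than 2-fold. All 10 below it in the sums stayed below, 7 by more than 2-fold. Of these 7, *MCM5* rests on 1 UMI and *CDC45* on 2 UMIs in the rich RVT cells. *MCM3* (1.51 against 1.89), *UBR7* (1.44 against 1.93) and *NASP* (1.25 against 1.58) kept most of their departure, and so did *PRIM1* (-1.54 against -1.82), *ATAD2* (-1.73 against -1.81) and *TK1* (-1.88 against -2.72). That of *TK1* rests on the uncentred scale, since in the sums its centred ratio of -2.13 lay near the centred mean of -1.82. The same holds for *RFC2* (-1.35 against -1.39), with a centred ratio of -2.22. In the sums *GINS2* (-2.63) and *MCM7* (-1.90) also lay within 2-fold of the centred mean. The departures of *UNG* (-0.07 against 1.79), *SLBP* (0.12 against 1.64), *CHAF1B* (-0.39 against 1.49) and *RRM2* (-0.11 against -1.21) were not seen in rich cells. In the rich RVT cells *UNG* rests on 10 UMIs, *SLBP* on 11 and *CHAF1B* on 4, against 65 for *RRM2*. The first 3 values are thus imprecise, with an interval of the log2 ratio of *CHAF1B* from -2.72 to 0.77. Several of the departures that were kept rest on similarly few UMIs in the rich RVT cells. *UBR7* and *RFC2* had 11 each, *PRIM1* 9 and *ATAD2* 7, so these values are imprecise as well. *TK1* had 16, *MCM3* 26 and *NASP* 57.

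In RVT over RVC the mean was -0.09 in rich cells and -1.69 in all cells. Of the 7 genes more than 2-fold below the mean in the sums, 6 were below it in rich cells and 2 of them by more than 2-fold, *MCM5* at -2.55 (-1.23 in all cells) and *CDC45* at -1.59 (-2.27). Both rest on few molecules, *MCM5* on 1 UMI and *CDC45* on 2 UMIs in the rich RVT cells, and the intervals of their log2 ratios ran from -7.98 to -0.09 and from -4.77 to 0.25. *PRIM1* (-0.94 against -1.02), *GINS2* (-0.92 against -1.28) and *GMNN* (-0.86 against -1.44) departed by less than 2-fold. *TK1* departed by -0.14 in rich cells against -1.47 in all, and *DTL* by 0.48 against -1.03. Of the 7 genes above the mean in the sums 5 were above it in rich cells, none by more than 2-fold, with *UNG* at 0.80 (2.32 in all cells), while *SLBP* (-0.52 against 1.33) and *CHAF1B* (-0.23 against 1.23) were below it. The rich RVT cells numbered 224 to 296 depending on the gene left out, so that these values carry wide intervals.

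**Figure D5:**
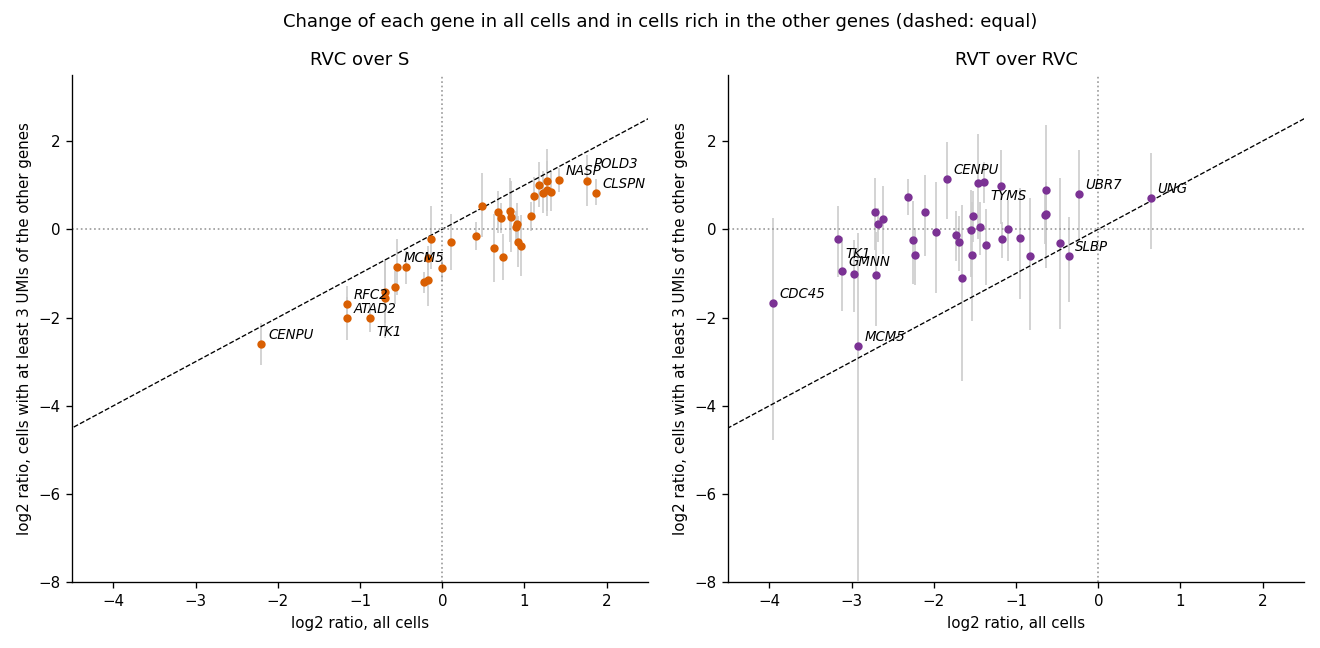
Log2 ratio of each of the 37 genes in all cells (x axis) and in thinned cells with at least 3 UMIs of the other genes (y axis), for RVC over S and RVT over RVC, with exact 95% counting intervals in grey and equality as a dashed line. In RVC over S the points rise together from *CENPU* (-2.20 and -2.59) to *CLSPN* (1.87 and 0.83), most of them below the line of equality, and in RVT over RVC most points lie above it, as for *TK1* (-3.16 and -0.23), while *MCM5* (-2.92 and -2.64) lies near it.

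Some of the counts may hold UMIs of other genes. In the annotation 7 of the 42 genes are overlapped by another listed gene on the same strand (*FEN1*, *RRM2*, *PRIM1*, *HELLS*, *UBR7*, *POLD3* and *CHAF1B*), 12 by one on the other strand, among them *CENPU*, *CLSPN*, *TYMS*, *MCM7* and *GINS2*, and 7 have a pseudogene named after them, among them *PCNA*, *UNG*, *TYMS* and *CENPU*. Values of these genes are uncertain to that extent.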

How the data were processed

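Gene counts of single A375 cells were analysed in 1 droplet library (10x Genomics Chromium v2 kit) for each of S, RV, RVC and RVT. The authors deposited raw UMI counts, whole numbers for each Ensembl gene and barcode. Cell Ranger and bcl2fastq 2.20.0.422 are named in the submitters' processing notes, and the gene annotation and the strand setting are not given in the sources used here.

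Barcodes with at least 500 genes and at most 20% mitochondrial UMIs were kept, and those with the highest scrublet scores (scanpy 1.11.5) were removed at 0.8% per 1000 barcodes, since the tool's own threshold marked 5 to 16 per library. For each library the UMIs of a gene were added up over the cells and divided by the library total to give CPM. The library totals were 58470570, 52329047, 32870878 and 25398374 UMIs in S, RV, RVC and RVT, and a count of 0 allows up to 3 UMIs, 0.0513 to 0.118 CPM. Genes with a mean of at least 5 CPM entered the shares of all genes. A gene departed from the module where its log2 ratio lay more than 1 from the mean over the genes past this limit. Intervals at 95% were Poisson for CPM, binomial conditional on the summed count for ratios and Clopper-Pearson for shares of cells. GC content was taken from GENCODE 29 transcripts on GRCh38 in 10 bins. Python 3.11.15, numpy 2.4.6, pandas 2.3.3, scipy 1.17.1 and matplotlib 3.10.9 were used, with TMM factors from edgeR 4.0.16 in R 4.3.3 (0.875, 0.899, 1.01 and 1.25 in S, RV, RVC and RVT). Ratios were tested on simulated Poisson sums, in which 100.0% of 200 genes changed 4-fold passed 2-fold in each comparison, as sums of this depth nearly ensure.

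The 42 genes and all lists were chosen with earlier results of these data known. Values in all libraries were given for the 3 highest and 3 lowest genes relative to the mean in each comparison, the 5 with the most UMIs in S and *MCM2* to *MCM7*, and for the 2 highest and 2 lowest of the other replication genes. Further genes were named with their role, or where GC centring changed a statement. Alternatives were other barcode filters, scaling by TMM or by totals that leave out ribosomal protein and mitochondrial genes, every cell weighted equally, GC centring, other limits on low genes, another summary over the genes and another thinned depth.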

Additional observations from a re-analysis of the deposited data

Results flagged for a closer look

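All but 1 of the 8 sets of barcodes left out of the comparisons held UMIs of the replication genes above the level that a count of 0 allows. In barcodes with the highest doublet scores the 42 genes summed to 953, 1241, 1257 and 371 CPM in S, RV, RVC and RVT, in the order of the kept cells. In barcodes under 500 genes or over 20% mitochondrial UMIs they summed to 1460.1 CPM in 959 RVC barcodes (1375 to 1549) and 475 in 1114 RVT barcodes (431 to 523), both above the kept cells of the same library. The 2 such barcodes of S gave 969.6 CPM from 5 UMIs. The exception was the 1 such barcode of RV, with 445 CPM from 2 UMIs, below the 667 CPM that a count of 0 allows.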

How the results depend on the processing

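The mean log2 ratio of the genes kept its sign in all comparisons under every alternative run, and so did all 23 members named by rule in RVT over RVC. The sign changed under at least 1 alternative for *CDCA7* in RV over S, for *MCM6*, *MCM7*, *TK1* and *TYMS* in RVC over S, and for *MCM4*, *NASP*, *POLD3*, *SLBP*, *UBR7* and *UNG* in RVT over S. In RV over S the mean of 0.35 became 0.31 with TMM scaling, 0.29 without ribosomal and mitochondrial genes and 0.42 with equal weight for every cell. In RVC over S the mean of 0.37 became 0.15, 0.18 and 0.47 under the same alternatives, 0.05 with GC centring, 0.68 as a median and 0.40 as a ratio of sums, and GC centring left 2 genes more than 2-fold higher and 5 lower. In RVT over S the mean of -1.32 became -1.84, -1.40 and -1.38, -1.82 with GC centring, -1.21 as a median, -1.20 as a ratio of sums and -1.16 in cells with at least 1000 genes. In RVT over RVC the mean of -1.69 became -1.99, -1.58 and -1.85, -1.97 with GC centring, -1.55 as a median, -1.60 as a ratio of sums and -1.52 in cells with at least 1000 genes, where 9 genes in place of 14 departed from it. At a limit of 20 CPM fewer genes are left, and 5 genes departed in RVC over S, 11 in RVT over S and 6 in RVT over RVC. At this limit 10 and 16 were more than 2-fold lower in RVT over S and RVT over RVC. The shares of all genes were not computed at 20 CPM, so these lower counts are not read as smaller shares than at 5 CPM. Except where the construction shows it, the cause was not tested. Leaving out the doublet removal or using all barcodes moved none of these results beyond 1.5 times, or beyond counting error for the means. Departures from the mean do not depend on TMM or library size, since the same factor enters every gene. Depth limits *CDC45*, *MCM5*, *EXO1*, *BLM*, *CCNE2* and *E2F8* in RVT, where 7 to 31 UMIs were counted. No paired analysis was possible because each condition has 1 library.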

Other observations

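The genes of the module differed in how closely they went with the G2/M genes from cell to cell. In thinned S cells with at least 3 UMIs of the 52 G2/M genes *RRM2* had 191 CPM, against 14.0 in cells with 0 such UMIs, *RAD51AP1* 30.3 against 2.5, *CLSPN* 52.4 against 4.37 and *CENPU* 81.6 against 9.05. *CDCA7* (14.8 against 11.9), *TIPIN* (15.5 against 11.9), *SLBP* (23.9 against 14.7) and *UHRF1* (10.2 against 5.93) had more similar levels in both kinds of S cells. In RVT *RRM2* had 77.9 CPM in cells rich in G2/M genes (128 UMIs) and 0.512 in cells without them (2 UMIs), and *CLSPN* 63.3 and 1.28 (104 and 5 UMIs). *TK1* had 32 UMIs in the 1095 rich RVT cells and 0 in the 2604 cells without G2/M UMIs, in which 3 UMIs would be allowed by a count of 0. In RVC, where most cells were rich in G2/M genes, *NASP* had 166 CPM in rich cells and 85.2 in the 266 cells without G2/M UMIs. These are levels in cells of 1 library each, and no test was made between kinds of cells.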
